A study of Gallus gallus with 2 samples.

Results

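The core circadian clock genes CLOCK, NPAS2, ARNTL, PER2, PER3, CRY1 and CRY2 were examined in the germinal disc region of hen oocytes, which is the patch of yolk surface over the oocyte nucleus. The members were chosen by name, as core clock genes known to cycle in hen granulosa cells, and every probe set annotated with 1 of these 7 symbols was kept. This gave 24 probe sets, out of 27166 with a single symbol for 13008 genes on the array. The RefSeq gene table gave the same 7 symbols, with BMAL1 as the synonym of ARNTL.

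The comparison was between laying hens (Gallus gallus) without a bursa of Fabricius, the organ in which birds form B cells (Bx), and control hens, both aged 25 weeks. Surgical bursectomy was carried out on day 17 to 18 of incubation, and the series describes these birds as IgY-deficient, IgY being the antibody class that passes from blood to yolk. Discs came from yellow follicles F5 to F7, and 9 discs of 3 birds made 1 pool per group, hybridised to 1 Affymetrix Chicken Genome Array each. With 1 array per group, variation between birds was not measured, no test was possible and no p-value is given. The hour of collection and the hen's stage in her laying cycle are absent from the sources used here, so a level is that of a single, unstated time.

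The clock is a feedback loop of transcription. CLOCK or its relative NPAS2 pairs with ARNTL, and the pair binds E-box elements and activates the genes of the PER and CRY proteins, which return to the nucleus and repress the activating pair. A second loop of nuclear receptors acts on ARNTL itself. In hens the clock of the granulosa cells, the steroid-making layer around the oocyte, has been studied for its link to the timing of ovulation.

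Each value is a MAS5 signal, a linear brightness in arbitrary units that the authors had scaled to a common level on both arrays. A probe set counted as measured when it lay above a background floor on both arrays, the 95th percentile of the 746 probe sets not designed for chicken (42.6 for control, 36.4 for Bx). Of the 24 clock probe sets 18 were measured, 4 passed the floor on neither array, 1 on the control array only and 1 on the Bx array only. Each of the 7 genes had at least 2 measured probe sets. Probe sets differ in how well they bind, so signals are compared between arrays for the same probe set and no order of level between genes is given.

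The 7 clock genes were all detected, and none differed by 1.5-fold between the pools on a measured probe set. One further probe set of PER2, under the floor in Bx discs, is described with that gene. Of the 18 measured probe sets 0 were past 1.5-fold in either direction, beside 10.7% of the 22948 chicken probe sets measured. With each gene taken at its brightest probe set, 0 of 7 genes were past 1.5-fold, beside 7.73% of 10178 genes. At probe set level 9 were lower and 9 higher in Bx discs, with log2 ratios of Bx over control from -0.46 to 0.35 and a median of 0.01, the same as over all measured probe sets (0.01). The widest value on the lower side belonged to NPAS2 and the widest on the higher side to PER3, and both came from probe sets in the dimmer part of the array. In pooled RNA, fewer cells of a type and less RNA per cell cannot be told apart.

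**Figure D1:**
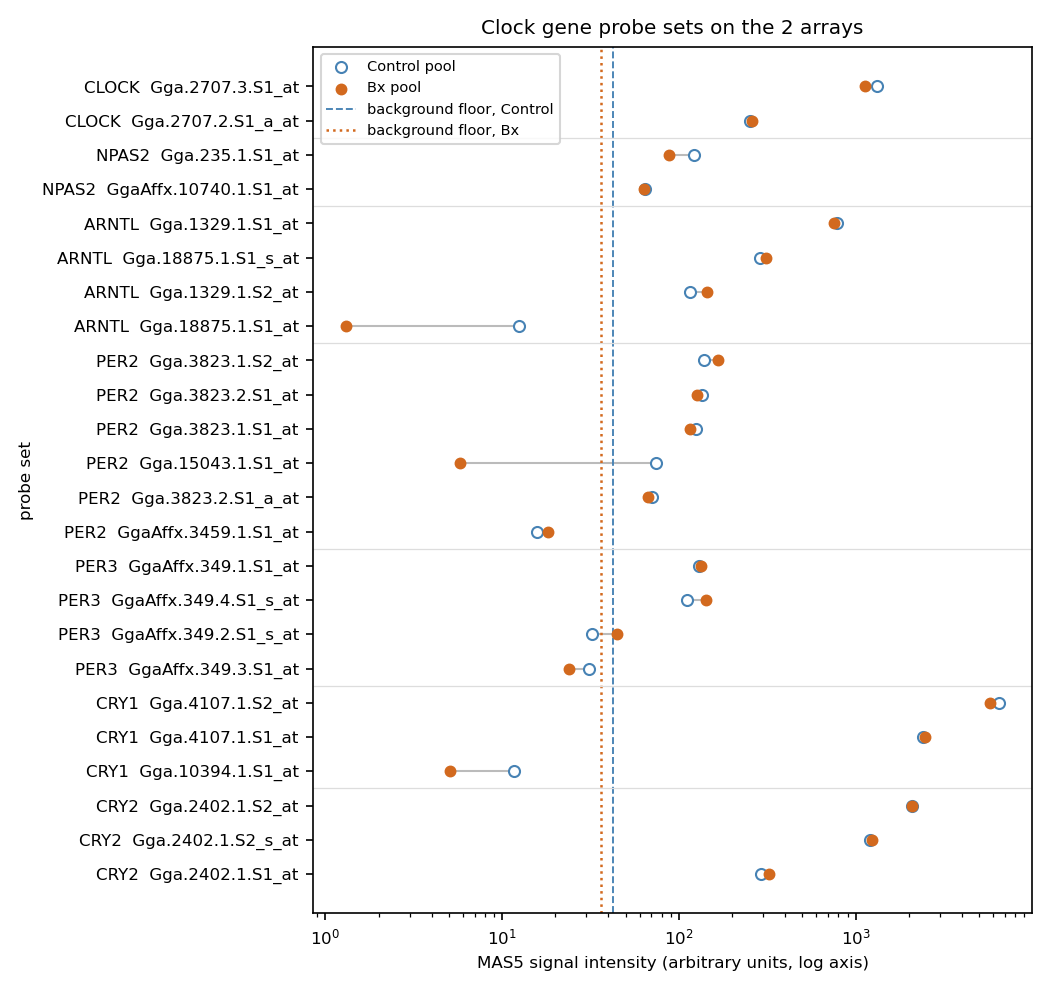
MAS5 signal (log axis, arbitrary units) of each of the 24 clock probe sets in control discs (open circles) and Bx discs (filled circles), 1 array each, with the background floors of 42.6 and 36.4 as vertical lines. The 2 circles nearly coincide for most probe sets to the right of the floors, and the wide gaps belong to probe sets at or under a floor on at least 1 array.

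The spread of ratios depended on brightness, and with no replicate arrays it served as the measure of error. The chicken probe sets measured on both arrays were split into 4 equal brightness groups by mean log2 signal. From the dimmest to the brightest group the SD of the log2 ratio was 0.51, 0.40, 0.27 and 0.17, which includes any real difference. Past 1.5-fold, a log2 ratio of 0.58, were 25.2%, 13.3%, 3.66% and 0.680% of the probe sets of these groups. Of the clock probe sets, 3 fell in the dimmest group, 9 in the next, 1 in the one above it and 5 in the brightest, so the bright probe sets of CRY1, CRY2 and CLOCK carried less error than those of NPAS2, PER2 and PER3. The ratio lay within 1 SD of its brightness group for 17 of the 18 clock probe sets, beside 71.7% of all measured probe sets. The exception was the brighter probe set of CLOCK. Against the SD over genes, each read at its brightest probe set and grouped anew by brightness, 5 of 7 clock genes lay within 1 SD. CLOCK (-0.24, SD 0.21) and CRY1 (-0.17, SD 0.15) lay beyond it. The share of all genes within 1 SD was not computed at this level, so the 5 of 7 has no background beside it.

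Among the activators, CLOCK encodes a bHLH-PAS transcription factor that also acetylates histones in mammals. Its probe set Gga.2707.3.S1_at read 1328 in control discs and 1125 in Bx discs, which was 15.3% lower (log2 ratio -0.24). The SD over probe sets of that brightness was 0.17, so the ratio lay beyond 1 SD and short of 1.5-fold. The other probe set, Gga.2707.2.S1_a_at, had 254 in control discs and 259 in Bx discs (log2 ratio 0.03). The 2 probe sets of CLOCK thus did not go the same way, and their mean log2 ratio was -0.10 ± 0.19 (SD, 2 probe sets), smaller than the spread between them.

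NPAS2, which can stand in for CLOCK as the partner of ARNTL, was read close to the floor. Its probe set Gga.235.1.S1_at read 122 in control discs and 88.3 in Bx discs, 27.4% lower (log2 ratio -0.46). The second, GgaAffx.10740.1.S1_at, had 64.7 and 63.3 (log2 ratio -0.03). Both were lower in Bx discs, with a mean log2 ratio of -0.25 ± 0.31 (SD, 2 probe sets). Both lay in the dimmest group, where the SD over probe sets was 0.51, wider than either ratio.

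ARNTL, a partner of CLOCK and NPAS2, had 4 probe sets, of which 3 were measured. Gga.1329.1.S1_at read 781 in control discs and 750 in Bx discs (log2 ratio -0.06). Gga.18875.1.S1_s_at had 288 and 313 (0.12), and Gga.1329.1.S2_at had 116 and 144 (0.31). One ratio was lower and 2 were higher in Bx discs, and their mean was 0.12 ± 0.18 (SD, 3 probe sets). The fourth, Gga.18875.1.S1_at, was at 12.5 and 1.31, under the floor on both arrays, so no ratio is given for it.

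Among the repressors, PER2 encodes a period protein that enters the nucleus with CRY. Of its 6 probe sets 4 were measured. Gga.3823.1.S2_at read 138 in control discs and 167 in Bx discs, 21.2% higher (log2 ratio 0.28). The other 3 were slightly lower in Bx discs: Gga.3823.2.S1_at had 136 and 127 (-0.10), Gga.3823.1.S1_at 125 and 116 (-0.11), and Gga.3823.2.S1_a_at 70.1 and 66.9 (-0.07). Over the 4 the mean log2 ratio was 0.00094 ± 0.18 (SD, 4 probe sets), and the direction of the gene therefore depended on which probe set was read.

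A further PER2 probe set stood apart from these 4. Gga.15043.1.S1_at read 73.9 in control discs and 5.75 in Bx discs, where it was not above background. Against the Bx floor its signal was lower by 2.03-fold or more in Bx discs. Of the 37693 chicken probe sets, 0.687% were likewise above the floor on the control array alone by 2-fold or more over the Bx floor. That share counts probe sets of every brightness. Among the 1716 above the floor on the control array only, 259 reached such a bound. Among the 4 measured PER2 probe sets, 3 were lower by 4.59% to 7.06%, and the brightest, Gga.3823.1.S2_at, was 21.2% higher. The last PER2 probe set, GgaAffx.3459.1.S1_at, was at 15.8 and 18.1, under the floor on both arrays.

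PER3, the other period gene measured, had 4 probe sets, of which 2 were measured. GgaAffx.349.1.S1_at read 129 in control discs and 134 in Bx discs (log2 ratio 0.06), and GgaAffx.349.4.S1_s_at had 112 and 143, 27.8% higher (0.35). Both were higher in Bx discs, with a mean log2 ratio of 0.20 ± 0.21 (SD, 2 probe sets). Their brightness group had an SD of 0.40, wider than either ratio. GgaAffx.349.2.S1_s_at was under the floor in control discs (32.3) and above it in Bx discs (44.7), which gives a bound of only 1.05-fold higher, and GgaAffx.349.3.S1_at was under it in both (30.9 and 23.8).

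CRY1 and CRY2 encode cryptochromes, which repress the activating pair, and were measured on bright probe sets. For CRY1, Gga.4107.1.S2_at read 6503 in control discs and 5770 in Bx discs, 11.3% lower (log2 ratio -0.17). Gga.4107.1.S1_at had 2402 and 2468 (0.04), in the opposite direction. The mean log2 ratio was -0.07 ± 0.15 (SD, 2 probe sets), and the remaining probe set, Gga.10394.1.S1_at, was under the floor on both arrays (11.6 and 5.10).

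CRY2 had the closest agreement between its probe sets. Gga.2402.1.S2_at read 2087 in control discs and 2081 in Bx discs (log2 ratio -0.0046). Gga.2402.1.S2_s_at had 1201 and 1243 (0.05), and Gga.2402.1.S1_at had 293 and 322 (0.14). The mean log2 ratio was 0.06 ± 0.07 (SD, 3 probe sets), the smallest SD among the 7 genes. CRY4, a further cryptochrome, is a synonym of LOC395100 in the RefSeq table, and the probe set of that gene was under the floor on both arrays (38.5 and 29.6).

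**Figure D2:**
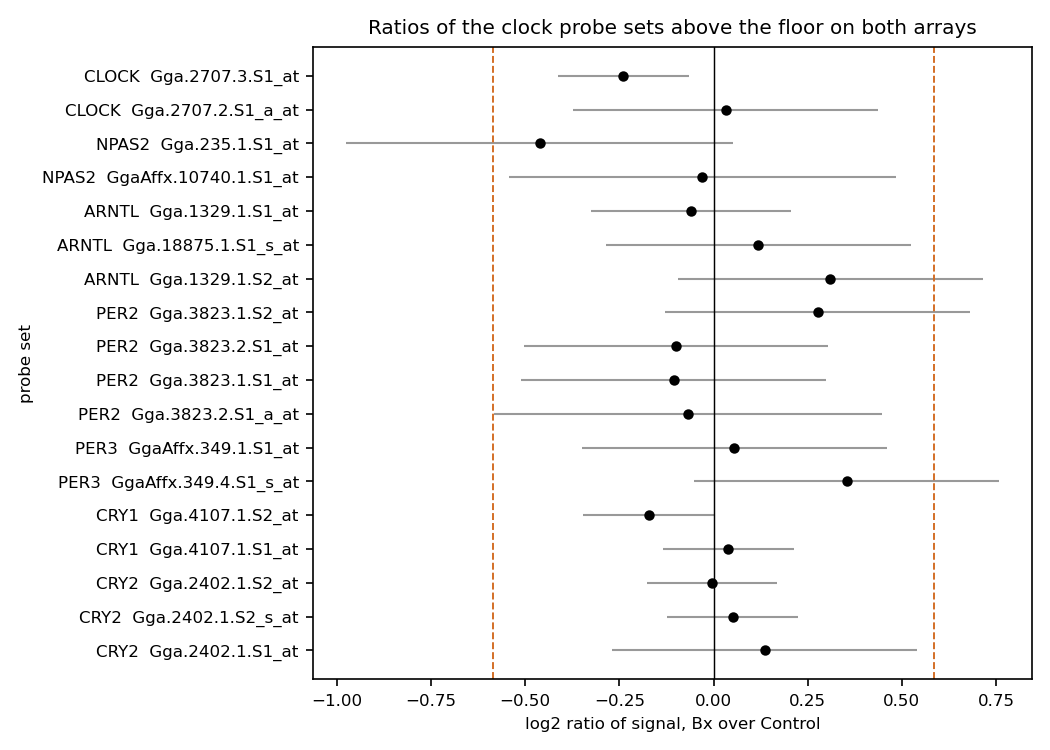
Log2 ratio of signal, Bx over control, for the 18 measured clock probe sets. Bars are 1 SD of the log2 ratio over all probe sets of the same brightness group, not replicate error, and dashed lines mark 1.5-fold. All 18 points lie between the dashed lines, and the bar of the brighter CLOCK probe set is the one that does not reach 0.

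The gap between the activating and the repressing side depended on how the genes were read. The 3 activator genes at their brightest probe sets had log2 ratios of -0.46 to -0.06, all lower in Bx discs, with a median of -0.24. The 4 repressor genes had -0.17 to 0.28, with 2 lower and 2 higher and a median of 0.03. Over all measured probe sets the activators had 4 lower and 3 higher and a median of -0.03, and the repressors 5 lower and 6 higher and a median of 0.04. When the probe sets of a gene were averaged, ARNTL was on the higher side (0.12), and CLOCK (-0.10) and NPAS2 (-0.25) stayed on the lower side. The medians were then -0.10 for the activators and 0.03 for the repressors. At the brightest probe sets the log2 ratio of ARNTL was above that of CLOCK by 0.18 and above that of NPAS2 by 0.40, and that of CLOCK was above that of NPAS2 by 0.22. The ratio of PER2 was above that of PER3 by 0.22, and the ratio of CRY1 minus that of CRY2 was -0.17. For scale, the SD between probe sets of a single gene was 0.18 in ARNTL, 0.19 in CLOCK, 0.31 in NPAS2, 0.18 in PER2 and 0.15 in CRY1.

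Probe sets of a gene showed how far a ratio could be relied on. In 2 of the 7 genes, NPAS2 and PER3, all measured probe sets went the same way, and in 5 they went both ways. Across the array 45.5% of the 4870 genes with at least 2 measured probe sets had all of them on the same side. The SD between probe sets was 0.07 to 0.31 among the clock genes, and its median over the 4870 genes was 0.20. Of the clock probe sets, 3 measured pairs are annotated with the same GenBank record and are not independent of each other. Their log2 ratios differed by 0.06 in CRY2, 0.03 in PER2 and 0.37 in ARNTL. A probe set whose ID ends in _s_at can match several transcripts. Without the 3 such measured ones, in ARNTL, CRY2 and PER3, 15 clock probe sets were left. The SD between probe sets covers measurement on these 2 arrays and says nothing of the birds.

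**Figure D3:**
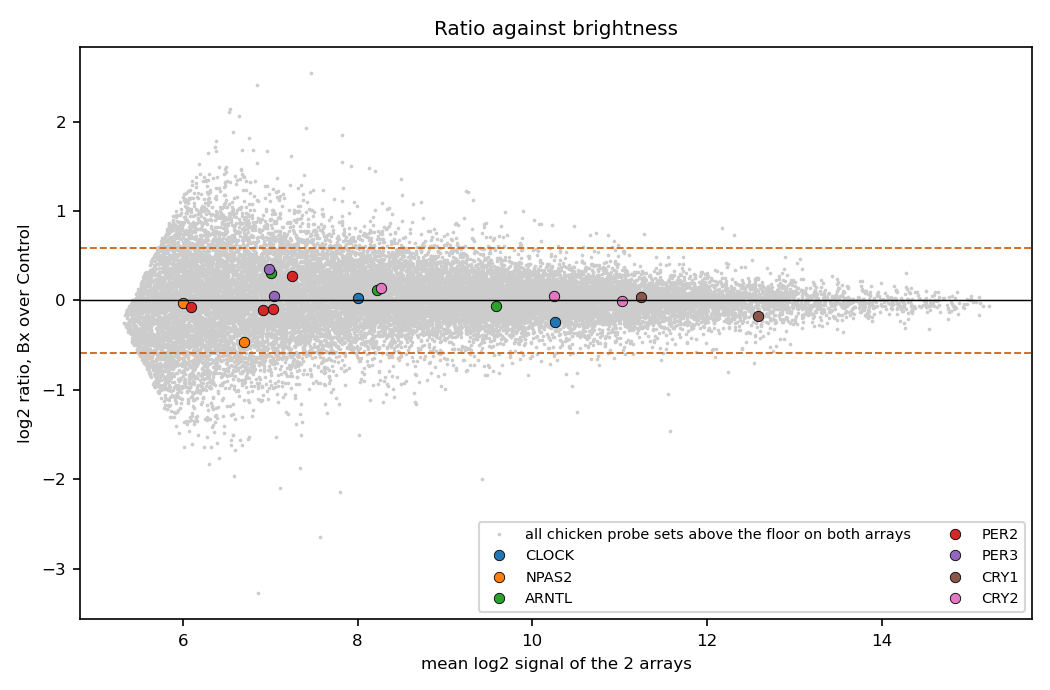
Log2 ratio, Bx over control, against mean log2 signal for the 22948 measured chicken probe sets (grey) and the clock probe sets (coloured by gene), with dashed lines at 1.5-fold. The grey cloud narrows to the right as its SD goes from 0.51 to 0.17 by brightness group, and the clock points lie within it at every brightness.

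The genes around the core loop were read from 7 lists of 88 genes: 63 were measured, 12 were matched but under the floor on at least 1 array and 13 were not matched by symbol. Of the 63, 0 were past 1.5-fold higher and 3 past 1.5-fold lower in Bx discs, beside 4.11% and 3.63% of all genes. The 3 were RORA, USP2 and EPAS1. Each had another probe set in the opposite direction, as given with its list. The median log2 ratio over the 63 was -0.09, beside 0.01 over all genes.

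The second loop acts on ARNTL through nuclear receptors, and 3 genes of this list were measured: NR1D2, whose product represses ARNTL, and RORA and RORB, whose products activate it. NR1D2 read 1863 in control discs and 1650 in Bx discs on its brightest probe set (log2 ratio -0.17) and a mean of -0.30 ± 0.27 (SD, 5 probe sets), with 1 of the 5, Gga.4315.1.S1_at, on the higher side (755 and 790). RORA had 147 and 93.7 (-0.65), but its other probe set had 72.7 and 103 (0.51), so the 2 were far apart and the mean was -0.07 ± 0.82. RORB had 87.5 and 100 (0.20) on 1 probe set.

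The list of D-box and E-box factors had 8 of 11 members measured, with a median log2 ratio of -0.14. Of the 8, 0 were past 1.5-fold, beside 7.73% of all genes. HLF and TEF are activators of D-box elements and NFIL3 their repressor. HLF had 1008 in control discs and 1024 in Bx discs (0.02), TEF 234 and 199 (-0.23), and NFIL3 322 and 330 (0.04). The measured probe sets of HLF went both ways, from -0.12 to 0.40, with a mean of 0.12 ± 0.23 (SD, 4 probe sets). BHLHE40 and BHLHE41 (DEC1 and DEC2), which compete at E-boxes, had log2 ratios of -0.12 and -0.34. BHLHE40 also had a measured probe set on the higher side (0.07), and its mean was -0.05 ± 0.10 (SD, 3 probe sets). A further BHLHE40 probe set was above the floor in Bx discs only, at least 3.38-fold higher. ARNTL2, the paralogue of ARNTL, had 993 and 808 (-0.30) on its 1 measured probe set. CIPC, an inhibitor of CLOCK, was at -0.16 and close to the floor, and TIPIN, the partner of TIMELESS at replication forks, was at 0.25.

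Kinases, phosphatases and ubiquitin ligases set how long PER and CRY proteins last. Of this list 19 of 22 were measured, 10 higher and 9 lower in Bx discs, where 47.6% of all genes were lower. The median log2 ratio was 0.0027, which was -0.09 with the mean over probe sets. The casein kinase genes CSNK1D and CSNK1E, whose products phosphorylate PER, had log2 ratios of -0.08 and -0.09 at their brightest probe sets, and CSNK1A1 0.06. The probe sets of CSNK1D lay far apart, with one at 252 and 146 (-0.79) and another at 457 and 550 (0.27), and a mean of -0.20 ± 0.54 (SD, 3 probe sets). A second probe set of CSNK1E was above the floor in Bx discs only, a bound of at least 1.49-fold higher. FBXL21, an F-box protein that acts on CRY in mice, had 2789 in control discs and 2332 in Bx discs (-0.26), with 3 probe sets that all went the same way and a mean of -0.14 ± 0.11. BTRC and FBXW11, the F-box proteins that recognise phosphorylated PER, had -0.24 and 0.02. USP2, a deubiquitinase, had 151 and 99.2 (-0.61) on its 1 measured probe set, while its second was under the floor in control discs (14.0) and at 73.7 in Bx, a bound of at least 1.73-fold higher.

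Coregulators and chromatin factors of the clock had 13 of 17 members measured. Of these 4 were higher and 9 lower in Bx discs, where 47.6% of all genes were lower. The median log2 ratio was -0.13 at the brightest probe sets. With the mean over probe sets the median was 0.0028. KMT2A, a histone methyltransferase, had a log2 ratio of -0.24 and a mean of -0.44 ± 0.19 over 3 probe sets that all went the same way. CREB1, which carries cAMP signals to PER genes in mammals, had 404 and 308 (-0.39), but its 4 probe sets were spread widely (mean -0.25 ± 0.54). SIRT1, a deacetylase tied to the clock in mice, was at -0.10, HDAC3 at -0.05 and NCOR1 at -0.13 on their brightest probe sets. Each of these 3 also had a measured probe set on the higher side, and their means were 0.0065, 0.0028 and -0.08. EP300 was at -0.16, with a mean of 0.29 ± 0.41 (SD, 3 probe sets). The 4 higher were CREBBP (0.10), SIN3A (0.10), NONO (0.04) and SFPQ (0.03), and SFPQ had a mean of -0.37 ± 0.48.

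The bHLH-PAS relatives that share the partner-binding domain of CLOCK and ARNTL but lie outside the clock had 6 of 9 members measured. EPAS1, a hypoxia factor, had 461 in control discs and 223 in Bx discs (log2 ratio -1.05), and its other probe set 42.9 and 85.9, the opposite direction, and the mean was -0.02 ± 1.45 (SD, 2 probe sets). ARNT2 was lower in both measured probe sets, with a mean of -0.29 ± 0.07. ARNT and HIF1A were at 0.05 and -0.12, and the second measured probe set of HIF1A was on the higher side (0.06). NCOA2 had a log2 ratio of -0.34 and NCOA1 0.03. The measured probe sets of NCOA2 ran from -0.71 to 0.20, with a mean of -0.31 ± 0.33 (SD, 5 probe sets). A further NCOA2 probe set was above the floor in Bx discs only, at least 1.35-fold higher.

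Genes of melatonin and light input were close to or under the floor. Of 11 members 3 were measured, 5 were above the floor in Bx discs only and 3 in neither pool. The 5 included AANAT, an enzyme gene of melatonin synthesis (8.99 and 63.1), and the melanopsin gene OPN4 (17.7 and 49.6), and the 3 included ASMT, which encodes the last enzyme of that synthesis. Bounds in the 5 ran from 1.04-fold higher for OPN5 to 2.19-fold for VIPR1, with OPN4 at 1.16-fold and AANAT at 1.48-fold. The Bx floor was the lower of the 2. Over all chicken probe sets, 7.4% were above the floor on the Bx array only and 4.55% on the control array only. These shares count probe sets of every brightness, while the 5 of 11 counts genes of a dim list. They are therefore no background for it. The melatonin receptor gene MTNR1A (55.7 and 60.1, log2 ratio 0.11), the opsin gene OPN3 (69.6 and 68.7, -0.02) and ADCYAP1R1, the PACAP receptor gene (91.3 and 76.6, -0.25), were the 3 measured. The other 2 probe sets of ADCYAP1R1 were above the floor in control discs only (62.4 and 59.0), at least 1.72-fold and 1.62-fold lower in Bx.

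Granulosa genes linked to the clock had 11 of 13 members measured, with a median log2 ratio of -0.12. Of the 11, 8 were lower in Bx discs, beside 47.6% of all genes, and 0 were past 1.5-fold, beside 7.73%. STAR, which delivers cholesterol for steroid synthesis, had 865 in control discs and 658 in Bx discs (-0.39), where the SD over genes of that brightness was 0.21. CYP11A1, the side-chain cleavage enzyme gene, had 7006 and 5538 (-0.34), and LHCGR, the receptor for the ovulatory hormone LH, 4477 and 4131 (-0.12). WEE1, a mitotic kinase gene under clock control in mouse liver, had 8136 and 6877 (-0.24). FSHR had 2820 and 2336 (-0.27) and HSD3B1 13970 and 12204 (-0.19), each lower on both of its probe sets. CYP11A1, WEE1, FSHR and HSD3B1 were past the SD of 0.15 over genes of their brightness, and LHCGR was within it. The share of all genes past 1 SD was not computed, so these have no background beside them. STAR, CYP11A1, WEE1 and LHCGR were each read on 1 probe set. The second probe set of FSHR was at -0.10, short of that SD. PTGS2, which makes prostaglandin precursors, was at -0.02, VEGFA at 0.10 and CDKN1A at 0.36 in the dimmest group of genes.

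**Figure D4:**
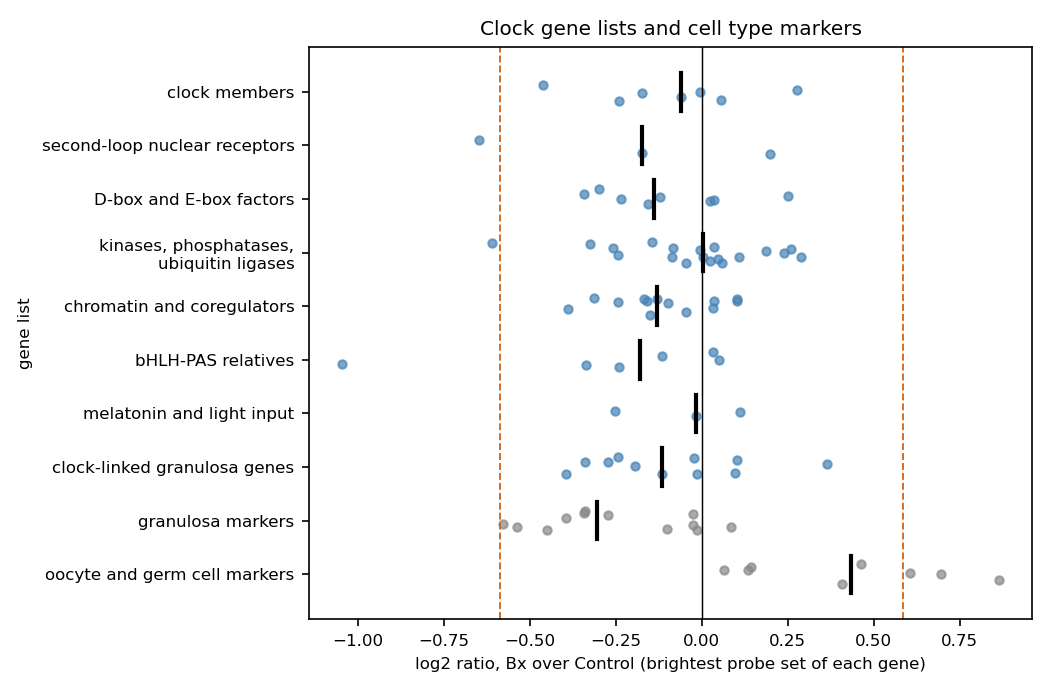
Log2 ratio, Bx over control, of each measured gene at its brightest probe set, by list, with the list median as a black bar and dashed lines at 1.5-fold. The clock lists (blue) have medians between -0.18 and 0.0027, while the granulosa markers (grey) have a median of -0.31 and the oocyte and germ cell markers (grey) 0.43.

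The discs hold oocyte and attached follicle cells, and markers of both were present, with ratios that varied from marker to marker. All 12 granulosa markers were measured, at signals from 658 to 36001. Of these 11 were lower in Bx discs, beside 47.6% of all genes. Their list had a median log2 ratio of -0.31 (-0.15 with the mean over probe sets). Its summed signal was 109727 in control discs and 100878 in Bx discs. INHBB (-0.58) and NR5A2 (-0.54) were the lowest, FST (-0.01), INHA (-0.02) and ZP3 (-0.03) were near 0, and NR5A1 (0.09) was higher. FST, INHA and AMH each had another measured probe set on the higher side. All 8 oocyte and germ cell markers on the array were measured, at signals from 43.6 to 3027. All 8 were higher in Bx discs, where 47.6% of all genes were lower. The list had a median of 0.43 and summed signals of 3938 and 4765. DDX4, ZP1, GDF9 and BMP15 were dim, at 43.6, 44.8, 59.0 and 90.3 in control discs against a floor of 42.6. Their log2 ratios were 0.70, 0.61, 0.46 and 0.06, beside an SD of 0.49 for genes this dim. Among the brighter markers, GTSF1 (0.86) and MOS (0.41) were past the SD of 0.31 for their group. NOBOX (0.13) and DAZL (0.14) were within 1 SD of theirs. A second probe set of GDF9 was under the floor on both arrays (23.8 and 1.98). STAR, CYP11A1 and FSHR are in both the granulosa marker list and the clock-linked list. Markers of other cell types were measured in part. Of 8 theca and fibroblast markers 5 were measured, at signals from 44.6 to 1364, and COL1A1, DCN and ACTA2 were not. COL1A2 read 1340 and 1364 (log2 ratio 0.03). CYP17A1 (58.7 and 110, 0.90) was past 1.5-fold higher in Bx discs, and PDGFRA (86.6 and 44.6, -0.96) was past 1.5-fold lower. COL3A1 (-0.33) and TAGLN (-0.45) were lower. CYP17A1, PDGFRA and TAGLN lay in the dimmest group of genes. Of 5 endothelial markers 3 were measured, CDH5 (186 and 130), ENG (81.7 and 121) and PECAM1 (67.1 and 84.9), and KDR and TEK were not. Of the leukocyte markers CD74, which other antigen-presenting cells share, read 3182 and 2212 (log2 ratio -0.52) and CSF1R 65.1 and 67.8, while PTPRC and CD3E were not measured. Of 5 erythrocyte markers on the array 4 were measured, at signals from 43.7 to 144. HBZ (73.3 and 43.7, log2 ratio -0.75) was past 1.5-fold lower in Bx discs. HBE (-0.56) was lower, and HBA1 (0.36) and HBAD (0.12) were higher. The part of cell makeup in the clock gene values was not tested.

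The clock gene ratios moved little with the scaling of the arrays. CLOCK, NPAS2 and CRY1 were lower in Bx discs under every setting that kept them, at -0.29 to -0.10, -0.52 to -0.25 and -0.23 to -0.07. Apart from the mean over probe sets, these settings all read the brightest probe set of a gene, so they are not independent readings. The second measured probe sets of CLOCK (0.03) and CRY1 (0.04) were on the higher side, and that of NPAS2 (-0.03) was on the lower. PER2 and PER3 were at or above 0 under each setting that kept them, from 0.00094 to 0.28 and from 0.00055 to 0.20. However, 3 of the 4 measured probe sets of PER2 were on the lower side (-0.10, -0.11 and -0.07). The second measured probe set of PER3 (0.35) was on the higher side. ARNTL (-0.11 to 0.12) and CRY2 (-0.06 to 0.06) were on either side of 0, ARNTL with the mean over probe sets and CRY2 with that mean and after quantile normalization.

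**Figure D5:**
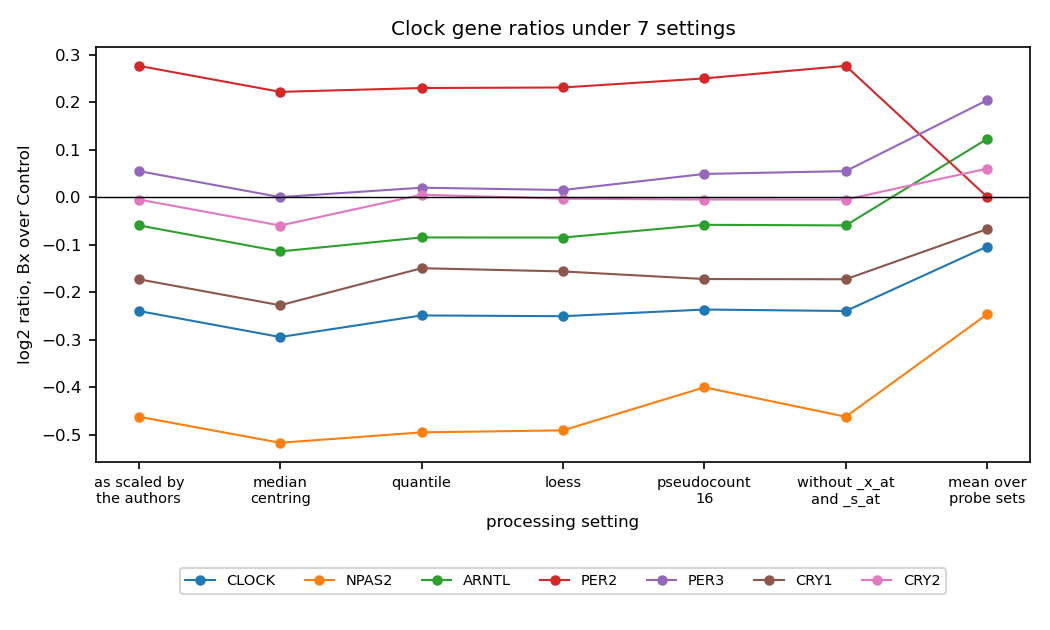
Log2 ratio, Bx over control, of each clock gene under 7 settings: as scaled by the authors, 3 other scalings, a pseudocount of 16, without probe sets ending _x_at or _s_at, and the mean over measured probe sets in place of the brightest. Lines join the values of a gene and carry no order. The lines run nearly flat over the scalings, and the shift is in the last setting, where PER2 comes to 0.00094 and ARNTL to 0.12.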

How the data were processed

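The authors deposited linear MAS5 intensity values, per the submitters' processing notes, with no version or scaling target stated in the labels. Trimmed by 2% at either end, the array means were both 500.1, so a change in total mRNA would not show. Detection calls were not used here. Signals were taken to log2 with no pseudocount and no further scaling (Python 3.11.15, pandas 2.3.3, numpy 2.4.6, loess from statsmodels 0.14.6). Gene symbols came from the platform annotation at GEO, which may be outdated, and gene IDs were looked up in the RefSeq table of GRCg7b. Each gene was read at its brightest measured probe set (by mean log2 signal over the arrays).

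With 1 array per group no test was run, and the number of arrays limits the precision. Members and lists were chosen with earlier results of these data known. Named were every member probe set, list members past 1.5-fold, and others by role. Mean log2 ratios of probe sets were tested on simulated data, with changes placed only above the dimmest brightness group. Counts were not tested this way. Alternatives were median centring, quantile normalization, loess (fraction 0.3), no floor, a floor at the 75th percentile of chicken probe sets (484 and 498), adding 16 before the log, averaging a gene's probe sets, dropping IDs ending _x_at or _s_at, and a threshold of 2-fold.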

Additional observations from a re-analysis of the deposited data

How the results depend on the processing

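Of 141 recomputed values, 137 kept within the spread set for them (the SD over genes of like brightness for a gene, the SD over list members for a median, 1.5 times for a count). Several settings read the same brightest probe set of a gene unchanged, so many of these values could not move. The spreads were also wide enough to hold a change of sign. The count is therefore no measure of stability. None of the 15 ratios and medians was past 1.5-fold to begin with, and 7 of them had the other sign under at least 1 setting: ARNTL, CRY2, the median of the clock genes, and the medians of the second-loop list (-0.17, and 0.20 without _x_at and _s_at), the kinase list, the coregulator list and the melatonin list. The 4 values that moved further were counts past 1.5-fold. With no floor, 3 clock probe sets were past 1.5-fold in place of 0, in ARNTL, CRY1 and PER2, each under the floor on at least 1 array. Over all probe sets the count was 2460, and it was 12838 with no floor, 95 with the floor at the 75th percentile (9087 probe sets kept) and 419 at 2-fold. That higher floor left 4 clock genes and 6 clock probe sets, without NPAS2, PER2 and PER3. The median over the clock genes was -0.06, with a range of -0.12 to 0.00094. No paired analysis was possible because each group has 1 array. Nearness to background limits NPAS2, PER2 and PER3 most.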

Other observations

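Among the genes of the wider clock lists, 14 of 159 probe sets were above the floor on the Bx array only and 3 on the control array only, beside 7.4% and 4.55% of all 37693 chicken probe sets. The floor itself was lower on the Bx array. Bounds of 2-fold or more on the Bx side were reached by 0.504% of all chicken probe sets, counted at every brightness. Among the 2790 above the floor on the Bx array only, 190 reached such a bound. BHLHE40 had a probe set with such a bound, Gga.11665.1.S1_at, at 29.1 (control) and 144 (Bx), at least 3.38-fold higher. Gga.11665.1.S1_s_at, which shares its number, had 132 and 138, with a log2 ratio of 0.07. VIPR1, a receptor gene for vasoactive intestinal peptide, was at 37.6 and 93.1, at least 2.19-fold higher in Bx discs, and NCOA3, a nuclear receptor coactivator gene, at 14.3 and 91.4, at least 2.15-fold higher. These 3 genes were chosen after their values were seen.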
